A study of Mus musculus with 3 samples.

Results

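The aminoacyl-tRNA synthetases were taken as the protein-coding genes whose symbol follows the family's naming pattern, that is a letter for the amino acid followed by "ars" with or without a final 1 or 2, and Eprs, Farsa, Farsb and Tarsl2. This gave 38 genes among 22028 protein-coding genes and 55536 mouse gene rows in all. Of these, 21 encode cytosolic enzymes and 17, with names ending in 2, encode mitochondrial enzymes. The rule uses names and annotation only, and it was set with earlier results of these data known. The RNA came from the cytosolic fraction of bone-marrow-derived macrophages of C57BL/6J mice, sequenced after depletion of ribosomal RNA. Lipid A, the part of bacterial lipopolysaccharide that Toll-like receptor 4 recognises, was given to the cells in the course of 12 h at 100 ng/ml, removed for 12 h, and given again at 100 ng/ml for 120 min before harvest. All 3 libraries belonged to this 1 group, so no untreated or once-treated cells entered the comparisons, and the values describe levels in this state and not a response to Lipid A. The libraries carry replicate numbers 1, 2 and 3 but share a single donor entry, the strain, with sex and age not collected, and no label tells whether separate animals or separate cultures were used. The spread between libraries, and every p-value built on it, may thus reflect technical variation alone.

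Aminoacyl-tRNA synthetases join each amino acid to the tRNAs that decode it, and so set the fidelity of the genetic code. The cytosol and the mitochondrial matrix each need a full supply. Most amino acids have a separate nuclear gene for either compartment, while Gars and Kars each encode both the cytosolic and the mitochondrial enzyme, and mitochondrial glutaminyl-tRNA is made by amidation without an enzyme of its own. In mammalian cytosol a group of synthetases is bound into the multisynthetase complex, held together by the scaffold proteins Aimp1, Aimp2 and Eef1e1. Macrophages make large amounts of secreted protein, and Wars is known from human cells as an interferon-inducible gene whose product can be secreted. Genes of many cytosolic synthetases are targets of Atf4, the transcription factor of the amino acid response, which binds sequences of the form TGATGNAA.

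Expected counts came to 29376859, 64822118 and 37665844 in replicates 1, 2 and 3. The abundant signal recognition particle RNAs Rn7s1 and Rn7s2 took 60.4%, 63.3% and 57.9% of all TPM (a transcript level corrected for length and for the library's total), and protein-coding genes took 26.5% to 32.5%. A TPM of 1 was therefore a strict limit for a protein-coding gene. All 9 macrophage markers examined reached 1 TPM in every library, and of 22 markers of T, NK and B cells, neutrophils, fibroblasts, endothelium and erythroid cells only Kdr did, at 4.21 ± 2.54 TPM (SD, n = 3). The nuclear RNA Malat1 had 191, 133 and 952 TPM in replicates 1, 2 and 3, and the 13 protein-coding genes of the mitochondrial genome together had 1536, 1245 and 3953 TPM. Both were thus highest in replicate 3.

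Transcripts of the cytosolic enzymes were the more abundant class. Their median level was 14.3, 13.6 and 14.3 TPM in replicates 1, 2 and 3, against 1.56, 1.59 and 1.62 TPM for the mitochondrial enzymes, and the ranges did not overlap. On the log2(TPM + 1) scale the difference of medians was 2.58, 2.50 and 2.55, or 2.54 ± 0.04 (SD, n = 3). It was positive in 3 of 3 libraries, and the exact two-sided sign-flip permutation test gave p = 0.25, the smallest value that 3 libraries allow. In bulk RNA fewer cells of a type and less RNA per cell cannot be told apart. Summed over genes, cytosolic enzymes reached 366, 328 and 299.95 TPM and mitochondrial enzymes 34.7, 34.6 and 38.4 TPM, so that the cytosolic share of synthetase TPM was 91.3%, 90.5% and 88.6%. Synthetases together made up 0.123%, 0.137% and 0.125% of protein-coding TPM.

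Detection followed the same division. At least 1 TPM in every library was reached by 20 of 21 cytosolic and 10 of 17 mitochondrial enzymes, where 39.1% of protein-coding genes did so. At least 10 TPM was reached by 13 of 21 cytosolic and 0 of 17 mitochondrial enzymes, where 15.3% of protein-coding genes did so. No member was silent, and the lowest expected count of any member in any library was 21, for Pars2 in replicate 1. The counts at 10 TPM depend on what the TPM are scaled over. When TPM was rescaled to the total of protein-coding and long noncoding genes alone (rescaled TPM), 20 cytosolic and 3 mitochondrial enzymes passed, and in a second deposited quantification 3 and 0 did.

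**Figure D1:**
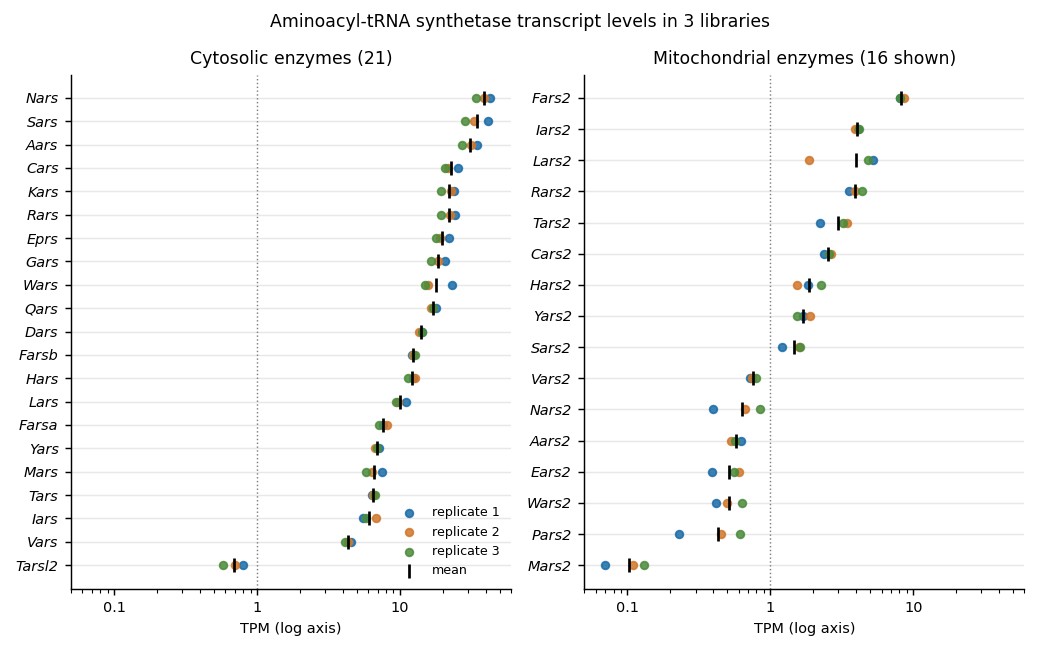
Level of each synthetase gene in TPM on a log axis, 21 cytosolic enzymes on the left and 16 mitochondrial enzymes on the right; points are the 3 libraries, black marks their means, and the dotted line is 1 TPM. Tarsl2 is the only cytosolic enzyme left of the line, and no mitochondrial enzyme reaches the 13 cytosolic ones above 10 TPM.

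The 5 highest members were Nars, Sars, Aars, Cars and Kars, which together held 42.1%, 40.9% and 38.3% of synthetase TPM. Nars, which charges asparagine tRNA, stood at 42.9, 38.9 and 34.1 TPM, a mean of 38.6 ± 4.41 (SD, n = 3; ENSMUSG00000024587.10, mm10 chromosome 18, 64499647 to 64516652). Sars, the serine enzyme, which also charges the selenocysteine tRNA, stood at 41.5, 33.1 and 28.4 TPM. Aars, the alanine enzyme, with an editing site that removes wrongly attached serine, stood at 34.6, 31.6 and 27.2 TPM (ENSMUSG00000031960.14, chromosome 8, 111033144 to 111057664). The ranges of these 3 genes overlapped in the order of levels, Nars with Sars and Sars with Aars, whereas Aars lay above Cars in every library. Cars, the cysteine enzyme, averaged 22.7 ± 2.55 TPM and Kars, the lysine enzyme of both compartments, 22.0 ± 2.44 TPM (SD, n = 3 each).

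Below them came Rars (arginine) at 21.9, Eprs, which carries both the glutamate and the proline activity in 1 protein, at 19.6, and Gars (glycine, both compartments) at 18.6 TPM on average. Wars, the tryptophan enzyme, stood at 23.2, 15.6 and 14.9 TPM with a mean of 17.9 ± 4.63 (SD, n = 3). Its coefficient of variation on deposited TPM, 25.9%, was the largest of the cytosolic enzymes. On TMM-scaled CPM, used below to compare libraries, it was 18.1%, below the 19.3% of Iars. In the second quantification Wars stood at 8.96, 8.48 and 6.98 TPM. Qars (glutamine) averaged 17.1, Dars (aspartate) 14.1, Farsb, the beta subunit of the phenylalanine enzyme, 12.4, Hars (histidine) 12.2 and Lars (leucine) 10.1 TPM. The remaining cytosolic genes ran from Farsa, the alpha subunit of the phenylalanine enzyme, at 7.60 TPM through Yars (tyrosine) at 6.91, Mars (methionine) at 6.55, Tars (threonine) at 6.48, Iars (isoleucine) at 6.07 and Vars (valine) at 4.33 TPM. Tarsl2, a second cytosolic threonyl-tRNA synthetase, was the lowest at 0.80, 0.70 and 0.58 TPM. In the ranking of all 38 members, 27 of 37 neighbours had overlapping library ranges, so most single steps of the order were within the spread.

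Among the mitochondrial enzymes Fars2, the single-chain phenylalanine enzyme, was highest on TPM over all transcripts. It stood at 8.08, 8.56 and 8.03 TPM, a mean of 8.22 ± 0.293 (SD, n = 3). On this scale its mean lay above those of 7 of the 21 cytosolic genes, from Farsa down. Next came Iars2 at 4.04, Lars2 at 3.98, Rars2 at 3.94, Tars2 at 2.96, Cars2 at 2.53, Hars2 at 1.88, Yars2 at 1.71 and Sars2 at 1.47 TPM. The 7 members under 1 TPM were Vars2 at 0.753, Nars2 at 0.637, Aars2 at 0.573, Ears2 and Wars2 at 0.517 each, Pars2 at 0.430 and Mars2, the methionine enzyme, at 0.103 ± 0.0306 TPM (SD, n = 3). Mars2 had 36, 143 and 97 expected counts.

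Enzymes of the multisynthetase complex and free cytosolic enzymes had similar levels. The 8 complex members (Dars, Eprs, Iars, Kars, Lars, Mars, Qars and Rars) had median levels of 16.1, 15.1 and 15.6 TPM, against 12.4, 12.8 and 12.8 TPM for the 13 free enzymes. The difference of medians on the log2(TPM + 1) scale was 0.35, 0.21 and 0.26, or 0.27 ± 0.07 (SD, n = 3), positive in 3 of 3 libraries with p = 0.25 in the exact two-sided sign-flip permutation test. Within the complex the levels ran from 6.07 TPM for Iars to 22.0 TPM for Kars. Without Tarsl2, the single free member under 1 TPM, the difference was 0.08 ± 0.08 with an exact permutation p of 0.50. The complex's scaffold genes were lower than most of its enzymes, Aimp1 at 9.54 ± 0.631, Eef1e1 at 2.74 ± 0.342 and Aimp2 at 2.00 ± 0.206 TPM (SD, n = 3 each).

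Setting each cytosolic enzyme against the mitochondrial enzyme for the same amino acid gave 18 pairs over 17 amino acids. The ratio of TPM within a library does not depend on how libraries are scaled. In 17 of 18 pairs the cytosolic transcript was the higher in all 3 libraries, and by amino acid the same held for 16 of 17. Phenylalanine was the exception on this scale, with Farsa at 0.942, 0.944 and 0.884 times Fars2, whereas Farsb, the other subunit, stood above Fars2 by log2 ratios of 0.58, 0.52 and 0.68. On other scales Farsa stood at 0.930, 1.14 and 1.08 times Fars2 in the second quantification and above it in all libraries on TMM-scaled CPM (1.64, 2.13 and 1.98) and on the TPM of protein-coding transcripts alone (1.59, 2.22 and 1.61). The count was 17 of 17 amino acids on both of those scales. The median over pairs of the log2 ratio was 2.91.

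The size of the gap differed widely between amino acids. For methionine, Mars over Mars2 was 107, 57.9 and 44.7 on TPM. For asparagine, Nars over Nars2 was 107, 58.9 and 40.1, and for alanine Aars over Aars2 was 55.7, 59.6 and 47.7. At least 20-fold in every library was reached by 6 pairs, which add proline (Eprs over Pars2 at 95.8, 42.2 and 29.2), glutamate (Eprs over Ears2) and tryptophan (Wars over Wars2 at 55.3, 31.2 and 23.6). On TPM the gap was narrow for isoleucine, where Iars over Iars2 was 1.36, 1.76 and 1.40, and for threonine, where Tars over Tars2 was 2.84, 1.89 and 2.06. Lars over Lars2, for leucine, was 2.11, 5.22 and 1.94, but 0.337, 1.95 and 0.216 in the second quantification, where the cytosolic enzyme was higher in all libraries for 15 of 17 amino acids. In 11 of 18 pairs the ratio was highest in replicate 1, and in 12 of 18 it was lowest in replicate 3.

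**Figure D2:**
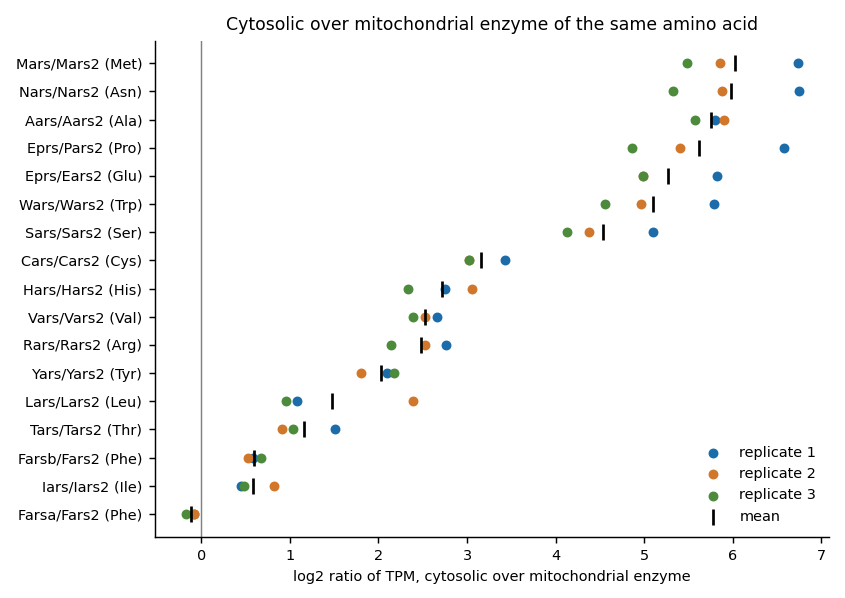
The log2 ratio of TPM of the cytosolic over the mitochondrial enzyme for 17 of the 18 pairs, with the amino acid in brackets; points are the 3 libraries and black marks their means. Farsa over Fars2 alone lies left of 0, and the pairs at the top, such as Mars over Mars2, carry their highest ratios in replicate 1 or, for Aars over Aars2, replicate 2.

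To compare libraries, expected counts were scaled by library size and by trimmed mean of M values (TMM) to CPM, a count corrected for library size and not for length. A gene's departure in a library is the log2 ratio of its CPM there to its mean CPM in the other 2 libraries. By a chi-square test against counting error, 32 of 38 synthetases differed between libraries at an adjusted p under 0.05, where 72% of the 14568 genes tested did so. These were 21 of 21 cytosolic and 11 of 17 mitochondrial enzymes. Of the protein-coding genes at 1 TPM in all libraries, 6909 of 8612 were called. The test calls more readily at high counts, so this split does not rank the compartments by their spread. The departures were modest in size, with a median coefficient of variation of CPM of 12.9% over all members, 10.1% over cytosolic and 15.8% over mitochondrial enzymes, beside 13.5% over the protein-coding genes tested. Without replicate 2 the count fell to 20 members, where 52.5% of genes were called. Aars2 was the least uneven, with 3.12, 3.21 and 3.14 CPM and an adjusted p of 0.975.

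In replicate 2, 19 of 21 cytosolic and 11 of 17 mitochondrial enzymes had their highest CPM, where 44% of protein-coding genes did, and the median departures there were 0.18 and 0.26 on the log2 scale, beside 0.06 for protein-coding genes. On the TPM as deposited, where protein-coding genes as a whole departed by 0.16, -0.14 and -0.07, this was not so, since 16 of 21 cytosolic enzymes were then highest in replicate 1, as were 56.8% of protein-coding genes. On TMM-scaled CPM 2 of 21 cytosolic and 1 of 17 mitochondrial enzymes were highest in replicate 1, where 32.4% of protein-coding genes were, and 0 of 21 and 5 of 17 in replicate 3, where 23.6% were. Lowest in replicate 2 were 0 of 21 and 2 of 17, where 25.4% were. In replicate 1, 10 of 21 cytosolic and 14 of 17 mitochondrial enzymes had their lowest CPM, where 37.6% of protein-coding genes did, with median departures of -0.03 and -0.40. On the other scales the mitochondrial enzymes lowest in replicate 1 were 16 of 17 on rescaled TPM, where 47.0% of protein-coding genes were, and 12 of 17 with DESeq2 size factors, where 34.1% were. They were 12 of 17 in the second quantification, where 32.0% were, and 11 of 17 on deposited TPM, where 20.1% were. In replicate 3, 11 of 21 cytosolic and 1 of 17 mitochondrial enzymes were lowest, where 37.1% of protein-coding genes were, with median departures of -0.18 and 0.17. The difference between the compartments across libraries has no test here, since each library is 1 sample.

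Single genes showed the range of these departures. Wars departed by 0.40, -0.06 and -0.38 in replicates 1, 2 and 3 (94.3, 76.8 and 65.9 CPM), and with Cars it was one of 2 cytosolic enzymes highest in replicate 1. Iars departed by -0.36, 0.45 and -0.13 and was lowest in replicate 1. Of the mitochondrial enzymes, Pars2 departed by -1.34, 0.36 and 0.68 on 21, 109 and 77 expected counts, Ears2 by -0.98, 0.55 and 0.26, Mars2 by -0.93, 0.29 and 0.49 and Tars2 by -0.74, 0.42 and 0.22. Each of these 4 was lowest in replicate 1. Lars2 went the other way, at 0.49, -1.28 and 0.52, with an adjusted chi-square p of 5.33e-102.

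**Figure D3:**
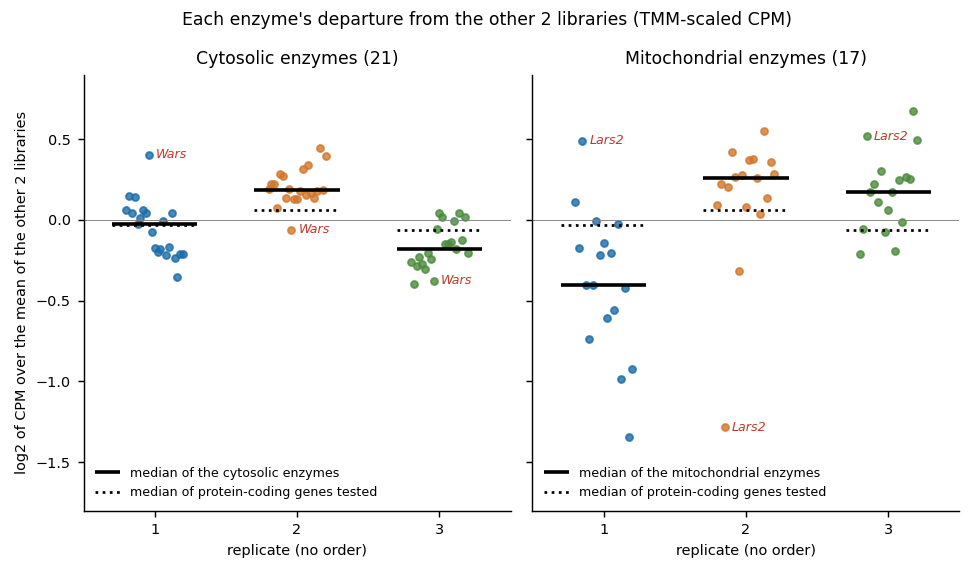
Departure of each enzyme in each library, as the log2 ratio of its TMM-scaled CPM to its mean in the other 2 libraries, cytosolic enzymes on the left and mitochondrial enzymes on the right; solid bars are the medians of the enzymes and dotted bars the medians of the protein-coding genes tested. The mitochondrial median in replicate 1 lies at -0.40, and Lars2 alone lies far below the others in replicate 2.

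Lars2, the mitochondrial leucine enzyme (ENSMUSG00000035202.8, mm10 chromosome 9, 123366927 to 123462666, plus strand), was the member whose level depended most on the quantification. In the second quantification it stood at 12.6, 3.21 and 24.1 TPM, against 5.25, 1.86 and 4.84 TPM in the first. On rescaled TPM the log2 ratio of second over first was 2.53, 1.56 and 3.32. It was the single member of 36 compared that was over 1.5-fold higher in all libraries, where 0.683% of protein-coding genes were, and no member was over 1.5-fold lower in all libraries, where 0.642% were. Among the 36 members, 29 had means of the quantifications within 1.2-fold of each other.

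The excess lay in particular transcripts. Lars2-209, annotated as a target of nonsense-mediated decay, had 6.51, 0.00265 and 10.9 TPM in the second quantification, against 2.03, 0 and 1.29 TPM in the first. Lars2-205, annotated as a retained intron, had 4.62, 1.04 and 10.9 TPM in the second quantification, against 0, 0 and 0.03 TPM in the first. The full-length coding transcript Lars2-201 had 1.40, 2.08 and 2.14 TPM in the second quantification, against 3.07, 1.71 and 3.31 TPM in the first, so it was not lowest in replicate 2 in the second.

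The mitochondrial 16S ribosomal RNA gene mt-Rnr2, examined after the values of Lars2 had been seen, had 4.78, 1.39 and 8.26 TPM in the second quantification. This was the same order over libraries as Lars2 there. The order was not particular to mt-Rnr2, since mt-Rnr1 had 6.37, 3.00 and 9.41 TPM there. Malat1 and the summed mitochondrial-encoded coding genes also had it in the first quantification. In the first, mt-Rnr2 had 6.68, 1.47 and 9.38 TPM, while Lars2 was highest in replicate 1 on TPM. On expected counts Lars2 had 853, 770 and 1172, which is again that order. In the second quantification Lars2 had 4020, 1997 and 8725 estimated counts, and mt-Rnr2 had 829, 448 and 1819. The quotient of Lars2 over mt-Rnr2 was thus 4.85, 4.46 and 4.80, while on the expected counts of the first quantification it was 2.04, 3.17 and 1.33. The part of mt-Rnr2 in the Lars2 values was not tested. Without Lars2 the summed mitochondrial TPM was 29.5, 32.8 and 33.6, and the difference of compartment medians was 2.59 ± 0.09 (SD, n = 3).

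**Figure D4:**
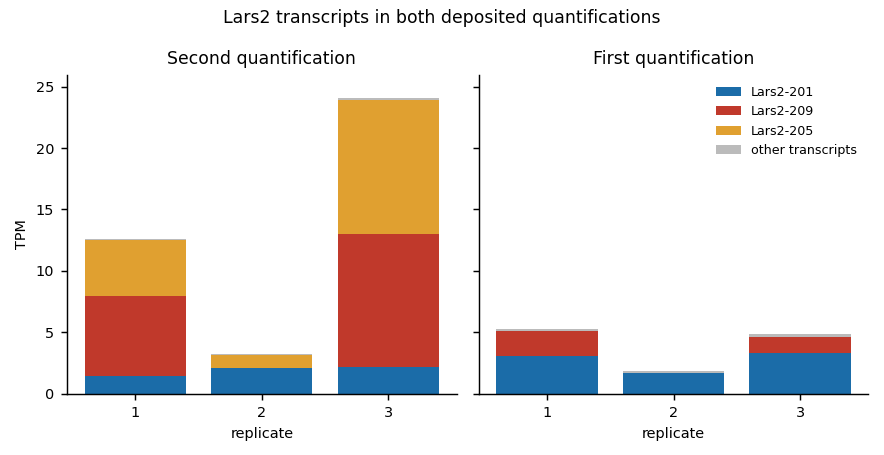
TPM of the transcripts of Lars2 in replicates 1, 2 and 3, in the second deposited quantification on the left and the first on the right, stacked by transcript. Lars2-209 and Lars2-205 make up most of the second quantification's bars in replicates 1 and 3, and Lars2-201 is the largest segment in each bar of the first.

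Most synthetase transcripts were of protein-coding type. For each gene the share of its TPM in transcripts annotated as protein coding was computed per library and averaged. The median share was 93.4% over the 38 members, 93.8% over the 30 members at 1 TPM, and 97.0% over 8607 protein-coding genes at 1 TPM. It was at least 90% in 24 of 38 members, in 19 of the 30 (63.3%), and in 70.0% of those genes. A protein-coding transcript led in 35 of 38 members, and the leading transcript was the same in both quantifications in 35 of 38.

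In the first quantification the leading transcripts of the highest members were Nars-213 with 56.9 ± 3.60% of the gene's TPM, Sars-202 with 62.2 ± 3.84%, Aars-201 with 92.0 ± 1.33%, Cars-202 with 54.8 ± 4.53% and Kars-201 with 85.3 ± 1.87% (SD, n = 3 each). Gars was carried almost entirely by Gars-201, at 99.7 ± 0.275%, and Wars by Wars-201, at 85.3 ± 3.54%. Of the Kars transcripts, Kars-202 held a further 10.7 ± 1.30%. The lead differed between the quantifications in 3 members, among them Iars, where Iars-201 led in the second with 91.7% and Iars-206 in the first with 97.7%, and Lars2. Nars-213 had the highest mean share of Nars in both, but held 35.0 ± 11.2% in the second (SD, n = 3). Nars-202 held 22.2% there, against 0.369% in the first. Shares in the second were 60.2% for Sars-202, 90.1% for Aars-201, 65.3% for Cars-202 and 82.1% for Kars-201.

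Qars was the clearest case of noncoding annotation. Its protein-coding share was 22.9%, 25.6% and 22.2%, and it was led by Qars-231, a nonsense-mediated decay transcript with 7.01, 7.69 and 6.10 TPM, or 40.7 ± 5.38% of 34 annotated transcripts' total (SD, n = 3). Nonsense-mediated decay transcripts together held 70.3%, 66.6% and 49.6% of Qars TPM. In the second quantification the protein-coding share of Qars was higher, at 32.8 ± 4.73%, and Qars-231 led there too with 48.6 ± 5.78% (SD, n = 3 each). Of the other members at 1 TPM or more, Cars2 had a protein-coding share of 37.6 ± 4.16% and was led by the processed transcript Cars2-202. Fars2 had 46.0 ± 9.67% and was led by the processed transcript Fars2-206, and Cars had 61.4%, with Cars-211, a nonsense-mediated decay transcript, at 37.3 ± 2.63%. Under 50% lay 4 of 38 members, 1 cytosolic and 3 mitochondrial. All 4 were among the 30 members at 1 TPM (13.3%), where 5.01% of the protein-coding genes at 1 TPM did so. Coding transcripts of Fars2 made up 4.62, 3.44 and 3.27 of its 8.08, 8.56 and 8.03 TPM.

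**Figure D5:**
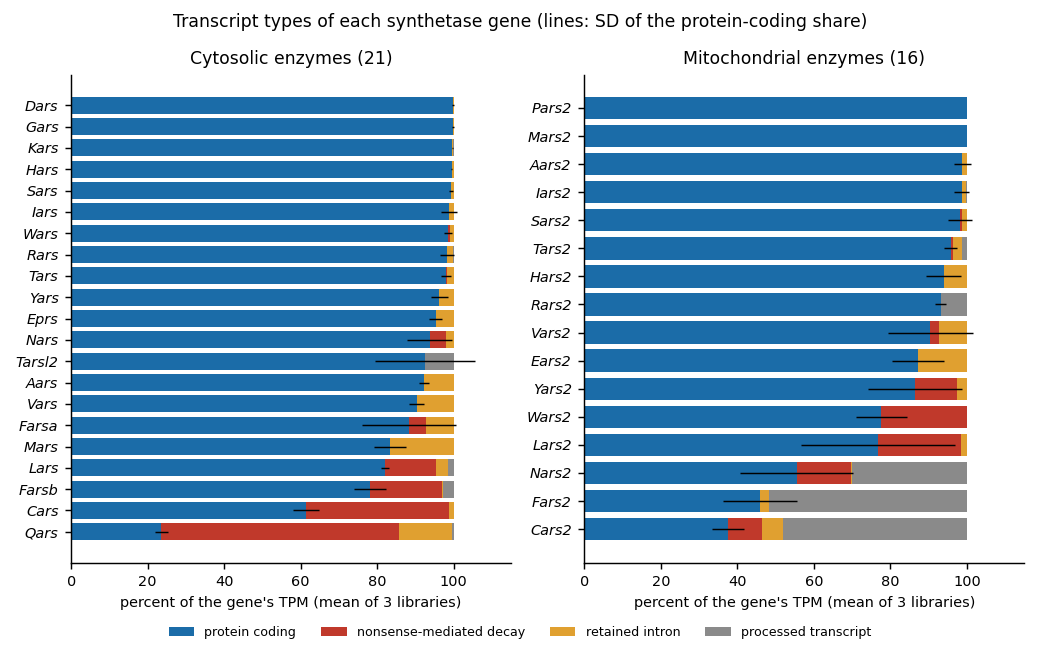
Mean share of each gene's TPM by annotated transcript type, 21 cytosolic enzymes on the left and 16 mitochondrial enzymes on the right, with lines for the SD of the protein-coding share over 3 libraries. Qars, Cars2 and Fars2 fall below 50% protein coding, and Qars is mostly of the nonsense-mediated decay type.

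Retained-intron transcripts of the synthetases were highest in replicate 3, as they were in general. Among 29 members at 1 TPM with any such transcript above 0, the share was highest in replicate 3 in 23, and 79% of protein-coding genes behaved alike, a share close to that of the synthetases. The members' median share was 0.646%, 0.535% and 3.73% in replicates 1, 2 and 3. It reached 6.79%, 6.36% and 28.2% in Qars and 1.44%, 4.21% and 16.3% in Farsa. Malat1 and the mitochondrial-encoded genes were also highest in replicate 3, and their part in this result was not tested.

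Promoter windows of 300 bases, 250 before and 50 after the start, were at hand for 28 members (14 of each compartment) in RefSeq on GRCm38.p6. The motif TGATGNAA, read on both strands, stood in 5 of 14 cytosolic windows, those of Aars, Gars, Iars, Tars and Yars, and in 0 of 14 mitochondrial windows, where 3.97% of 32851 promoters held it. The sequences are shown because they hold all the genes with a match, and capitals mark the match, on either strand. For Aars (chr8:111033692-111033841, plus strand), Gars (chr6:55037851-55038000, plus strand) and Tars (chr15:11399659-11399808, minus strand) the 150 bases before the start are given, and for Iars (chr13:49682126-49682155, plus strand) and Yars (chr4:129189895-129189924, plus strand) 30 bases around a match that begins 8 and 4 bases after the start.
Aars: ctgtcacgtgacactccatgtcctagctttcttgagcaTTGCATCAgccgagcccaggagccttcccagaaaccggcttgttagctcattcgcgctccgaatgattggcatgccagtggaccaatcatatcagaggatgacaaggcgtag
Gars: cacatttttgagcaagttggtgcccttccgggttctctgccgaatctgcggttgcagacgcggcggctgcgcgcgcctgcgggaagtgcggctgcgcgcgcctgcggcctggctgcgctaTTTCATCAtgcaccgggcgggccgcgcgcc
Tars: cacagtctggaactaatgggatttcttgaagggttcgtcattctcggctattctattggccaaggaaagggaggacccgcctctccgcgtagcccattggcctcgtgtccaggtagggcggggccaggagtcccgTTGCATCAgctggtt
Iars: cactgtcagtaTTGCATCAcctccagacgc
Yars: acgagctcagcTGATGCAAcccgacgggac
In Aars the match began 112 bases before the start, with another 10 bases after it, in Gars 30 and in Tars 15 bases before it.

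The 5 genes with the motif were all highest in replicate 2 on TMM-scaled CPM, as were 19 of 21 cytosolic enzymes, whereas on deposited TPM 1 of the 5, Iars, was. Aars had 293, 317 and 251 CPM in replicates 1, 2 and 3, Gars 71.6, 76.5 and 62.6, Tars 38.1, 46.2 and 43.4, Iars 37.3, 53.8 and 41.7 and Yars 29.4, 34.3 and 31.7. Atf4 itself was highest in replicate 1, at 206, 174 and 140 CPM. The interferon-stimulated response element was searched on both strands as GAAA, any 2 bases and GAAA again. Among the 28 members with a window it stood in that of Qars alone, where 3.44% of promoters held it. The 10 members without a window, Wars among them, were not searched for any of these motifs. The STAT site TTCNNNGAA stood in the windows of Aars, Kars and Nars2, where 8.3% of promoters held it. A match describes letters in these windows and no binding was measured.

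Members lie on 15 chromosomes, with 6 on chromosome 1, where Iars2 and Eprs are divided by 33647 bases and read in opposite directions. Hars and Hars2 overlap by 198 bases on chromosome 18 on opposite strands. In all, 10 members overlap another protein-coding gene of at least 1 TPM on average, 9 of them on the opposite strand. Among these are Mars with Ddit3, Wars with Wdr25, Yars with C77080 and Fars2 with Lyrm4. The overlaps are of whole gene spans, introns included, and the sources used here do not say whether counting used strand. How far reads of such a member and its partner were mixed was not tested. Ddit3, a stress-induced transcription factor, stood at 138, 82.7 and 73.4 TPM beside Mars at 7.46, 6.37 and 5.81 TPM. On TMM-scaled CPM Ddit3 was highest in replicate 1 (145, 106 and 85.3) and Mars in replicate 2 (23.8, 24.8 and 21.4).

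Genes that act next to the synthetases gave the setting. Of the 6 editing and hydrolysis genes, 5 reached 1 TPM in all libraries, and Prorsd1, of the prolyl-tRNA editing family, was highest at 6.07 ± 0.856 TPM (SD, n = 3). Of the 4 genes for mitochondrial amidation and formylation, 3 did so, Gatc at 4.69, Gatb at 1.69 and Qrsl1 at 1.39 TPM, while Mtfmt, the formyltransferase, was at 0.853 TPM. On TMM-scaled CPM 4 of 4 were lowest in replicate 1, where 37.6% of protein-coding genes were, and on deposited TPM 0 of 4, where 20.1% were. Beyond counting error 2 of 4 differed, where 72% of all genes did. All 5 selenocysteine genes reached 1 TPM, with Sephs2, the selenophosphate synthetase, at 30.2 ± 3.59 TPM. Among 7 elongation genes Eef1a1, which delivers charged tRNA to the cytosolic ribosome, stood at 845 ± 154 TPM and Tufm, its mitochondrial counterpart, at 11.6 ± 0.895 TPM (SD, n = 3 each).

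The list of stress kinases, Atf4 and its known targets, 16 genes in all, was uneven between libraries. Of the 16 genes, 14 differed beyond counting error, where 72% of all genes did. On TMM-scaled CPM 14 of the 16 genes were lowest in replicate 3, where 37.1% of protein-coding genes were. With DESeq2 size factors and in the second quantification 14 were so as well, where 38.3% and 52.0% were. On deposited TPM it was 12, where 33.7% were, and on rescaled TPM 10, where 24.3% were. Atf4 stood at 85.6, 59.8 and 52.5 TPM, and Trib3, a pseudokinase target of Atf4, at 10.6, 6.21 and 4.31 TPM. Asns, the asparagine synthetase, stood at 13.5, 11.0 and 7.54 TPM. Slc7a11, a subunit of the cystine transporter, was highest in replicate 2 at 2.40, 6.68 and 1.53 TPM. The median departures of this list were 0.06, 0.20 and -0.50 in replicates 1, 2 and 3, beside -0.03, 0.18 and -0.18 for the cytosolic synthetases.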

How the data were processed

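Total RNA depleted of ribosomal RNA was measured in 3 libraries of cytosolic RNA, with 1 µg as starting quantity and fragments of 250 to 400 per the labels. The authors deposited for each library a gene table and a first transcript table with expected counts and TPM, and, per the file headers, a second transcript table with estimated counts and its own TPM. The assembly was mm10 and the annotation GENCODE release M21, per the text deposited with the tables. Which aligner, quantifiers and strand setting were used is not given in the sources used here, per library or overall. Summed per gene, the second transcript table is the second quantification. The members and lists were chosen with earlier results of these data known.

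Rows that name no mouse gene (tRNA, spike-in and phiX rows) held 0.350%, 0.169% and 0.168% of expected counts in replicates 1, 2 and 3 and were left out of library sizes. Expected counts were rounded for TMM scaling (edgeR 4.0.16, R 4.3.3) and for DESeq2 1.42.0 size factors. Levels were compared as log2(TPM + 1), which understates differences of low genes, with an exact two-sided sign-flip permutation test over libraries. The chi-square test, with 2 degrees of freedom and Benjamini-Hochberg adjustment, took the 14568 genes that reached 10 counts in 1 or more libraries and covers counting error only. It was tested on simulated data. Other steps ran in Python 3.11.15 with pandas 2.3.3, scipy 1.17.1, numpy 2.4.6 and, for plots, matplotlib 3.10.9.

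Members are named with their levels, except 1 mitochondrial enzyme that is in every count but whose own values are not reported here. Transcripts named are the leading ones of the 5 highest members, of Kars, Gars and Wars, of members whose lead differs between quantifications, and of the 5 members at 1 TPM with the lowest protein-coding share. Others were chosen after their values were seen. The methionine enzyme Mars1 stands in the tables as Mars and was counted under that name. Tarsl2 was counted as cytosolic.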

Additional observations from a re-analysis of the deposited data

How the results depend on the processing

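The difference of compartment medians lay between 2.09 and 3.07 under the 13 alternatives run, and that of complex and free enzymes between 0.08 and 0.33 under 9. No paired analysis was possible because there is only 1 group. Leaving out each library in turn gave 20 to 28 members differing beyond counting error, where 52.5% to 57.1% of genes tested were called, 16 amino acids with the cytosolic enzyme higher each time, and a median protein-coding share of 92.8% to 95.5%, the highest without replicate 3. That share was 90.2% in the second quantification and 85.4% as a mean. The amino acids came to 15 in the second quantification and 17 on TMM-scaled CPM and on coding-transcript TPM. With both enzymes at 1 TPM, 10 amino acids remained and the cytosolic enzyme was higher in 9, fewer by construction. By deposited TPM, 18, 9 and 11 members were highest in replicates 1, 2 and 3, against 3, 30 and 5 on TMM-scaled CPM, while the second quantification gave 1 in replicate 1 and rescaled TPM gave 15 in replicate 3. At 10 TPM stood 3 cytosolic enzymes in the second quantification, and 20 cytosolic and 3 mitochondrial enzymes on rescaled TPM. Rescaling divides by the smaller total of protein-coding and long noncoding genes, so by construction it raised all 38 members, by 3.42. The second quantification lowered the mean TPM of 37 of 38 members, with a median ratio of 0.492. On rescaled TPM the median log2 ratio of second over first was -0.02 over the 36 members compared, beside -0.008 over protein-coding genes. Causes of the other shifts were not tested. The alternatives without Lars2 and with coding-transcript TPM, those for the coefficient of variation, retained introns, pair ratios by library and single members' TPM were chosen after seeing the data; retained introns were highest in replicate 3 in 25 members of the second quantification, and pair ratios highest in replicate 1 in 9 pairs there and on CPM. Depth limits the lowest members, such as Pars2 with 21, 109 and 77 expected counts.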
